A study of Rattus norvegicus with 13 samples.

Results

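Messenger RNAs of 7 genes whose enzymes convert adenine nucleotides or pass phosphate to and from creatine were followed in the rat left ventricle. They are the adenylate kinase genes Ak1, Ak3 and Ak4, the creatine kinase genes Ckm, Ckb and Ckmt2, and the AMP deaminase gene Ampd3. Every spot that carried one of these gene names and was not a control was taken, which gave 8 of the 30367 probes and 7 of the 26115 gene names on the array. RNA came from male rats aged 45 weeks, either wild type (WT) or overexpressing the β3-adrenergic receptor, a catecholamine receptor that the labels spell ADBR3. The strain, the promoter and the sequence used for overexpression are not stated in the labels used here. The 13 single-colour arrays held 4 WT and 5 overexpressing rats, called here by the number of the heart: WT 1, 3, 4 and 6 and overexpressing 1, 3, 5, 6 and 7. Rat 1 of each group was labelled and hybridized in duplicate and averaged. WT heart 5 and overexpressing heart 4 were replicate hybridizations of rats that the labels do not tie to another array, and they stayed outside the group means.

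A beating heart keeps little ATP in store and rebuilds it continuously, so enzymes that carry high-energy phosphate from the mitochondria to the myofibrils matter for its energy supply. Creatine kinases pass phosphate between ATP and creatine, and adenylate kinases interconvert ATP, ADP and AMP, which also sets the AMP signal read by AMP-activated protein kinase. AMP deaminase removes AMP by turning it into IMP.

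The 7 genes were chosen by the measured difference of Ak1 between these groups, with results of these arrays already known. Ak1 was the single gene, 1 of 15367 tested (0.00651%), that was higher in overexpressing rats past a Benjamini-Hochberg adjusted p of 0.05 by limma, and the other 6 are enzymes that share its nucleotides or the creatine circuit. The difference between the groups is therefore given for the 7 genes as a description, with no test. In fits without WT rat 3, 4 or 6, or without overexpressing rat 6 or 7, 0 genes were higher past the threshold by limma, while the difference of Ak1 stayed between 0.54 and 0.56. The count was also 0 with slide or scan day as a block, where Ak1 differed by 0.57 and 0.56, and with no filter on dim probes. Levels are log2 processed spot signals from which the 75th percentile of that array's log2 signals was subtracted. A level of one probe cannot be set against that of another, since probes differ in how well they bind.

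The Ak1 value rests on a single 60-base probe, A_42_P835462, whose first 30 bases are shown because another feature of the array reads the same stretch from the opposite strand. The array design places this probe at chr2:19822463-19822522 of build rn4, forward strand. The RefSeq gene table of GRCr8 holds Ak1 on chromosome 3, and which placement is right for the probe was not tested. Of 11341 tested genes with a chromosome in both sources, 1.95% were placed on different chromosomes in this way. In a search of all 30367 probes for 16 or more bases shared with any of the 8, on either strand, 1 probe was found. It is A_64_P146350, named after the expressed sequence BQ210707 and placed at chr2:19822439-19822498 of rn4 on the reverse strand. Its first 36 bases are the reverse complement of the first 36 bases of the Ak1 probe. Bases 7 to 36 of it are shown against bases 1 to 30 of the Ak1 probe, both 5′ to 3′.
Ak1 probe: tgtttactgccactggggccacctttcctt
BQ210707 probe: aaggaaaggtggccccagtggcagtaaaca

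The probes of the muscle and brain creatine kinases are shown because these genes are close relatives. The Ckm probe lies at chr1:78772431-78772490 and the Ckb probe at chr6:136452432-136452491 of rn4, on the forward and the reverse strand. Laid side by side with no gap, base 1 of the Ckm probe falls on base 24 of the Ckb probe. The 37 bases that then overlap hold 26 identical ones (70.3%), printed in capitals, and the longest identical run is 6 bases.
Ckm: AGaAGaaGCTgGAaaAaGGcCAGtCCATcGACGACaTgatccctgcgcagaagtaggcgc
Ckb: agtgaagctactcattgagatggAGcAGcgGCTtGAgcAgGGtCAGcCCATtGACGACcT
Among the other pairs of the 8 probes the longest shared run was 7 bases. Ak3 was read at chr1:232663630-232663689, Ckmt2 at chr2:22084356-22084415 and Ampd3 at chr1:168568143-168568202. Ak4 was read by a pair of probes, at chr5:122122011-122122070 and chr5:122119251-122119310. For these 4 genes and the creatine kinases above, the chromosome in the array design and that in RefSeq were the same.

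On each of the 13 arrays all 8 probes were well above background, and no spot of any array was saturated (0 spots). The 75th percentile of processed signals lay between 760.4 and 908.7 on the 13 arrays, and 55.2% to 67.8% of an array's spots cleared the background test. The probe of Adrb3, the rat gene of the overexpressed receptor, was well above background on 1 array, overexpressing heart 6. Since the introduced sequence is not named, this probe does not check the labels.

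Ak1 encodes the cytosolic adenylate kinase, the main form in muscle. Its level was 6.07, 5.98, 6.00 and 6.04 in WT rats 1, 3, 4 and 6. In overexpressing rats 1, 3, 5, 6 and 7 it was 6.50, 6.54, 6.62, 6.58 and 6.62. The groups did not overlap, and a gap of 0.44 separated the lowest overexpressing rat from the highest WT rat. The WT rats averaged 6.02 ± 0.0383 (SD, n = 4) and the overexpressing rats 6.57 ± 0.0523 (SD, n = 5), a difference of 0.55 ± 0.0463 (SE of the limma fit), or 1.47-fold. In whole tissue, more RNA per cell and more cells of a kind that holds the RNA cannot be told apart, here and in every gene below. The replicate hybridizations, outside these means, read 6.04 for WT heart 5 and 6.60 for overexpressing heart 4, each among the rats of its own group. Within slides 1, 3 and 4, the only ones that held both groups, the overexpressing arrays were higher by 0.63, 0.43 and 0.56, and on the 2 scan days by 0.57 and 0.53. Those slides held 1 to 3 arrays of a group, and the 3 WT arrays of slide 3 came from 2 rats. Scan day 1 held 1 WT array, that of rat 4, which was also the WT array of slide 1. Overexpressing rat 1 had a labeling on each scan day. The slide and scan day values therefore share arrays and rats and are not separate from each other. On slide 4 the WT array was the replicate hybridization of heart 5, and 1 of its 3 overexpressing arrays was that of heart 4, so the value there rests on arrays outside the group means.

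BQ210707 was read by a single spot per array, well above background on all 13 arrays, and was singled out after its values had been seen. Its level was -1.52, -1.74, -1.55 and -1.56 in WT rats 1, 3, 4 and 6, and -1.20, -1.04, -1.49, -1.63 and -1.15 in overexpressing rats 1, 3, 5, 6 and 7. Of the 5 overexpressing rats 4 lay above all WT rats, and rat 6 lay among them. The difference was 0.29 ± 0.124 (SE), and the feature did not pass the test (limma, Benjamini-Hochberg adjusted p = 0.515). Overexpressing rats 5 and 6, at 6.62 and 6.58 for Ak1, were the lowest of their group for BQ210707. Rat 7, the highest for Ak1, lay at -1.15 for BQ210707, below only rat 3. Whether the arrays' labelled RNA reached this opposite-strand probe from the Ak1 transcript or from another transcript was not tested.

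**Figure D1:**
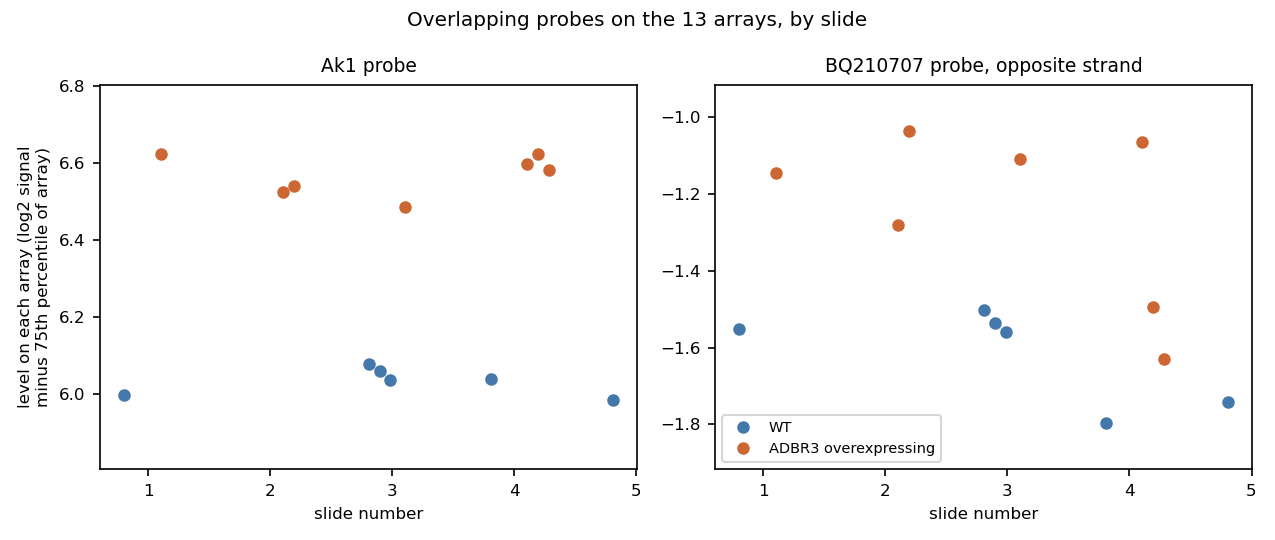
Level of the Ak1 probe (left) and of the overlapping BQ210707 probe (right) on each of the 13 arrays, in log2 units relative to that array's 75th percentile, against slide number; blue points are WT and orange points overexpressing arrays, and each panel spans 1 log2 unit. On the left all 7 overexpressing arrays lie at 6.48 or above and all 6 WT arrays at 6.08 or below, and on the right the groups overlap.

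Ak3 encodes the adenylate kinase of the mitochondrial matrix that uses GTP. Its level was 2.28, 2.26, 2.32 and 2.29 in WT rats 1, 3, 4 and 6, and 2.54, 2.28, 2.58, 2.36 and 2.43 in overexpressing rats 1, 3, 5, 6 and 7. Of the 5 overexpressing rats 4 lay above every WT rat, and rat 3 lay among the WT rats. The means were 2.29 ± 0.0264 (SD, n = 4) and 2.44 ± 0.123 (SD, n = 5), a difference of 0.15 ± 0.0670 (SE). The WT rats spanned 0.064 and the overexpressing rats 0.30. The replicate hybridization overexpressing heart 4 read 2.30, close to rat 3.

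Ak4, another mitochondrial adenylate kinase, was the least different of the 7. By the brighter probe its level was 0.48, 0.32, 0.43 and 0.39 in WT rats 1, 3, 4 and 6, and 0.38, 0.63, 0.36, 0.21 and 0.47 in overexpressing rats 1, 3, 5, 6 and 7. The overexpressing rats reached both above and below the WT range. The means were 0.41 ± 0.0657 (SD, n = 4) and 0.41 ± 0.154 (SD, n = 5), and the difference was 0.0011 ± 0.0819 (SE). The dimmer Ak4 probe, read at levels of -3.48 to -3.06, differed by 0.037 with groups that overlapped. The order of the rats was not shared by both probes, since overexpressing rat 3 was the highest of 9 with the brighter probe and rat 7 with the dimmer one.

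Ckm encodes the cytosolic creatine kinase of muscle, which sits in part at the sarcomere. Its level was 6.95, 6.78, 6.88 and 6.83 in WT rats 1, 3, 4 and 6, and 6.82, 6.98, 6.80, 6.85 and 6.80 in overexpressing rats 1, 3, 5, 6 and 7. Overexpressing rat 3 was the highest of the 9, while the other 4 lay within the WT range. The replicate hybridizations read 6.92 for WT heart 5 and 7.04 for overexpressing heart 4, the latter above all 9 rats. The means were 6.86 ± 0.0710 (SD, n = 4) and 6.85 ± 0.0763 (SD, n = 5), a difference of -0.0092 ± 0.0573 (SE).

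Ckb encodes the brain-type cytosolic creatine kinase, which the heart also makes. WT rats 1, 3, 4 and 6 read 3.43, 3.57, 3.54 and 3.40, and overexpressing rats 1, 3, 5, 6 and 7 read 3.50, 3.39, 3.41, 3.43 and 3.37. Rats 3 and 7 of the overexpressing group lay below all WT rats, and none lay above them. The means were 3.49 ± 0.0804 (SD, n = 4) and 3.42 ± 0.0510 (SD, n = 5), a difference of -0.065 ± 0.0535 (SE), or -0.037 without WT rat 3. Within slide 3 the overexpressing array was the higher by 0.063, whereas within slides 1 and 4 the overexpressing arrays were 0.16 and 0.17 lower.

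Ckmt2 encodes the sarcomeric creatine kinase of mitochondria, which charges creatine with phosphate where ATP leaves them. WT rats 1, 3, 4 and 6 read 8.17, 7.87, 8.15 and 8.07, and overexpressing rats 1, 3, 5, 6 and 7 read 7.95, 7.87, 8.01, 7.98 and 8.10. The groups overlapped nearly throughout, with WT rat 3 and overexpressing rat 3 as the lowest. The means were 8.07 ± 0.137 (SD, n = 4) and 7.98 ± 0.0854 (SD, n = 5), a difference of -0.085 ± 0.0749 (SE). It was -0.15 without WT rat 3 and -0.049 without WT rat 1. The labelings of overexpressing rat 1 differed by 0.21, more than for the other 7 probes, against a range of 0.23 over the 5 overexpressing rats. Those labelings lay on different slides and scan days.

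Ampd3 encodes the AMP deaminase first described in red cells. It was read by 10 spots per array, where the other probes of the set had 2. WT rats 1, 3, 4 and 6 read 0.78, 0.98, 0.80 and 0.60, and overexpressing rats 1, 3, 5, 6 and 7 read 0.97, 0.93, 0.92, 0.81 and 0.90. All 5 overexpressing rats lay above 3 of the 4 WT rats and below WT rat 3, which was the highest of the 9. The means were 0.79 ± 0.153 (SD, n = 4) and 0.90 ± 0.0580 (SD, n = 5), a difference of 0.11 ± 0.0743 (SE). The size rests on single WT rats, as it was 0.051 without WT rat 6 and 0.18 without WT rat 3.

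**Figure D2:**
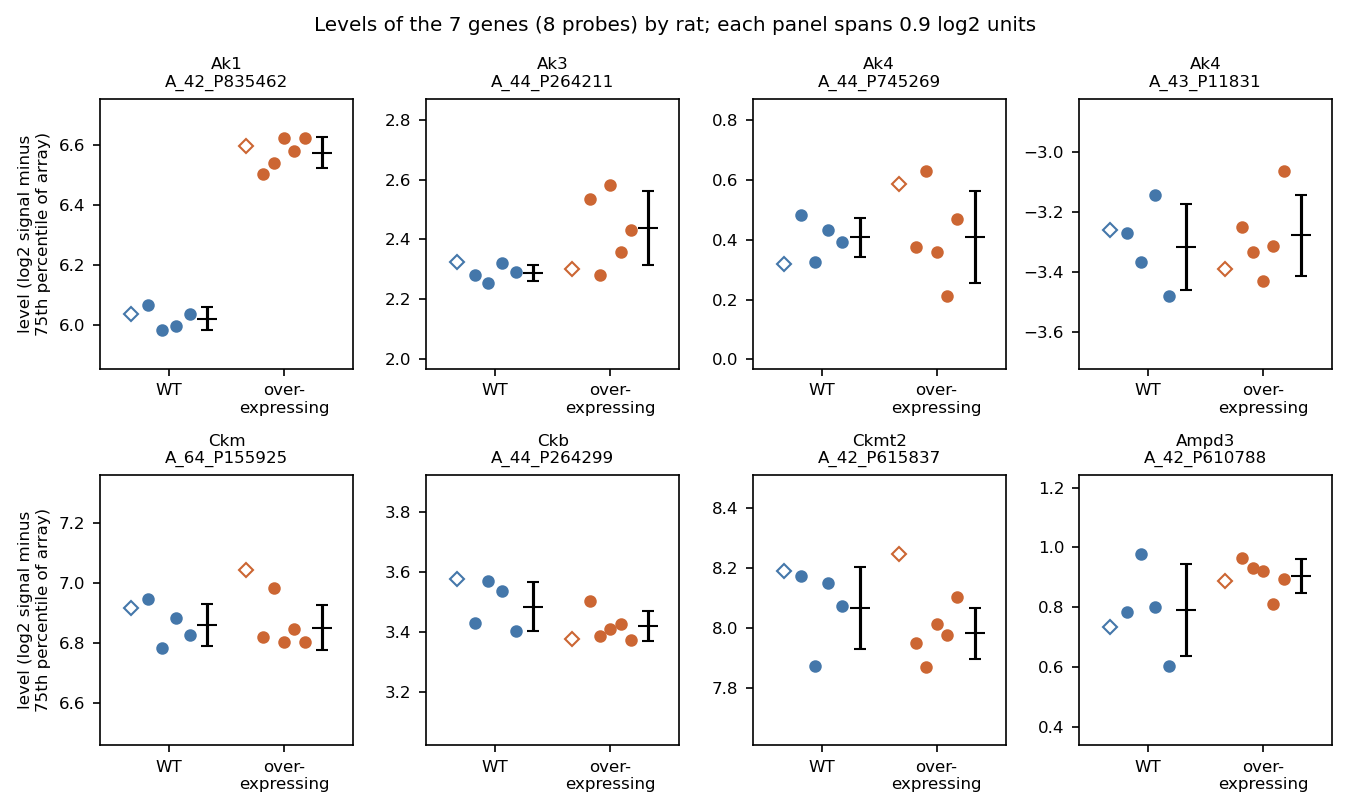
Level of each of the 8 probes by rat, in log2 units relative to each array's 75th percentile; filled points are rats, open diamonds the replicate hybridizations outside the means, and bars the mean with SD (4 WT rats in blue, 5 overexpressing rats in orange). Each panel spans the same 0.9 log2 units, so the separation of Ak1 (6.02 against 6.57) can be compared with the overlap of the other probes.

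In overexpressing rats 4 of the 7 genes were higher and 3 were lower. The median difference was 0.0011, against -0.0089 over all 15367 genes. With Ak1 alone apart, 1 of 7 had groups that did not overlap in the upward direction and 0 of 7 in the downward direction. Over all genes tested these shares were 1.22% and 2.3%. Ak1 entered the set for this difference, so nothing is read from the count. The difference of Ak1 was 11.8 times its SD between rats within groups, and that of Ak3 was 1.6 times. For the remaining genes the ratio lay between 0.0085 for Ak4 and 1.04 for Ampd3. Over 27 alternative settings and batches, the differences of Ak1, Ak3 and Ampd3 were above 0 in 27 and that of Ckmt2 in 0. Of the others, Ak4 was above 0 in 15 of 27, Ckm in 7 and Ckb in 1. The settings rework the same arrays, so an unchanged sign across them does not settle the direction of a gene.

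The SD between rats within groups is a description too, and for Ak1 it is part of what chose the gene, since limma sets the difference against it. For Ak1 it was 0.0468, and 3.01% of all genes tested had a smaller one. Ckb and Ckm followed with SDs of 0.0652 and 0.0741, below which lay 12.0% and 17.7% of genes. Ak3 came next at 0.0946, with 30.6% of genes below it. Ampd3, Ckmt2 and Ak4 spread by 0.109, 0.110 and 0.124, with 39.0%, 39.6% and 46.5% of genes below them. All 7 were thus less variable than the median gene, whose SD was 0.133. The 7 were well above background on all 13 arrays, whereas a gene was tested from 4 of 9 rats on. Their SDs were not compared with those of genes of like level.

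**Figure D3:**
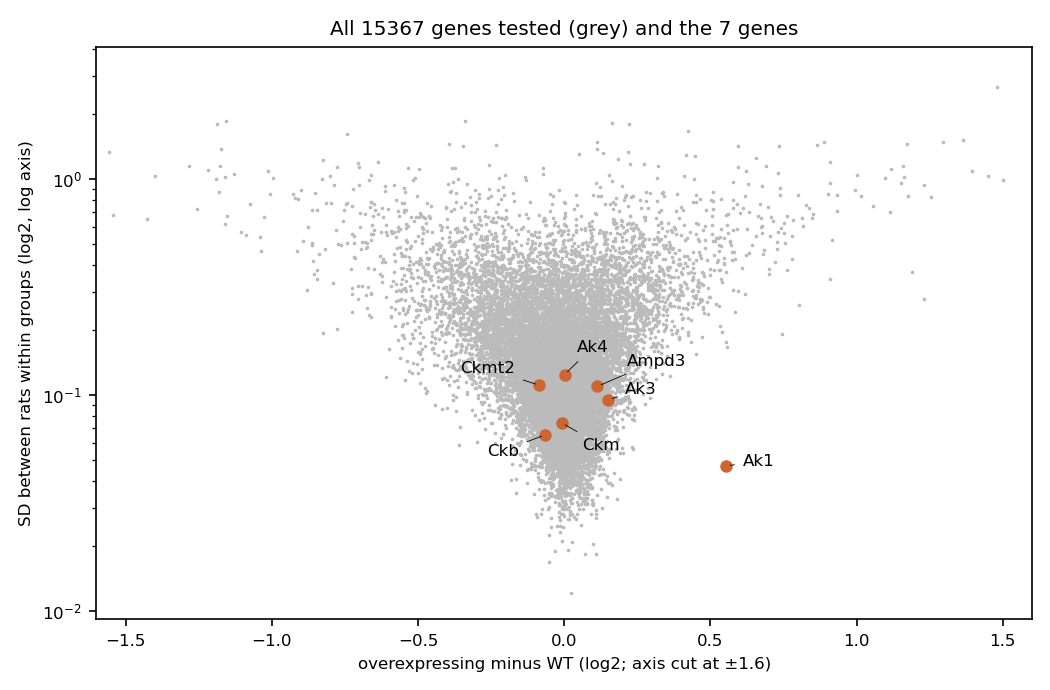
Difference between groups (overexpressing minus WT, log2) against the SD between rats within groups (log2, log axis) for all 15367 genes tested in grey and the 7 genes in orange; 20 genes lie beyond the horizontal axis, which ends at 1.6 on either side. Ak1 (0.55, SD 0.0468) lies to the right of the grey genes of like SD, and the other 6 lie among them.

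Repeat arrays show how closely a level was read again from the same rat. The labelings of WT rat 1 differed by 0.018 for Ak1, 0.012 for Ak3 and 0.0058 for Ckm. Those of overexpressing rat 1 differed by 0.040, 0.014 and 0.032. The WT labelings shared slide 3 and scan day 2. The overexpressing labelings lay on slides 3 and 2 and on different scan days, so their differences include slide and day. The rats of a group spanned 0.084 (WT) and 0.12 (overexpressing) for Ak1, although a range over 4 or 5 rats is wider than a difference of 2 labelings at equal spread. The 2 spots of the Ak1 probe lay a median of 0.046 apart on an array and at most 0.16. Over all probes that passed the filter, WT heart 5 was closest to WT heart 4 and overexpressing heart 4 to heart 3. In those pairs Ak1 differed by 0.041 and 0.057, while Ckmt2 differed by 0.039 and 0.38.

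Whether the 7 genes rise and fall together from rat to rat was asked after each group's mean had been removed, so that the difference between groups did not enter. Of 21 pairs, 0 passed an adjusted p of 0.05 (exact two-sided permutation within groups, Benjamini-Hochberg), with a smallest adjusted p of 0.386 by Pearson and 0.248 by Spearman. At an unadjusted p under 0.05 there was 1 pair by Pearson and there were 2 by Spearman, Ak1 with Ckb and Ak1 with Ckmt2. For Ak1 and Ckb, rats high for one were low for the other, with a Pearson r of -0.73 (n = 9, exact permutation p = 0.0323, adjusted 0.386) and a Spearman rho of -0.70 (exact permutation p = 0.0285, adjusted 0.299). Without the 2 rats farthest from the median of Ak1 the r was -0.43. The r of this pair ran from -0.85 to 0.034 over 16 alternatives. Ak1 and Ckmt2, the cytosolic adenylate kinase and the mitochondrial creatine kinase, had an r of 0.65 (exact permutation p = 0.0569, adjusted 0.386) and a rho of 0.82 (exact permutation p = 0.0118, adjusted 0.248). Their r was 0.63 without the 2 rats farthest from the median, and 0.48 to 0.79 over the alternatives. Ckb with Ampd3 and Ak4 with Ckm had r of 0.72 and 0.69 (exact permutation p = 0.0524 and 0.0736, both adjusted 0.386). Without the 2 farthest rats these were 0.44 and 0.72. The genes share the scaling of each array, and 9 rats leave each r wide.

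**Figure D4:**
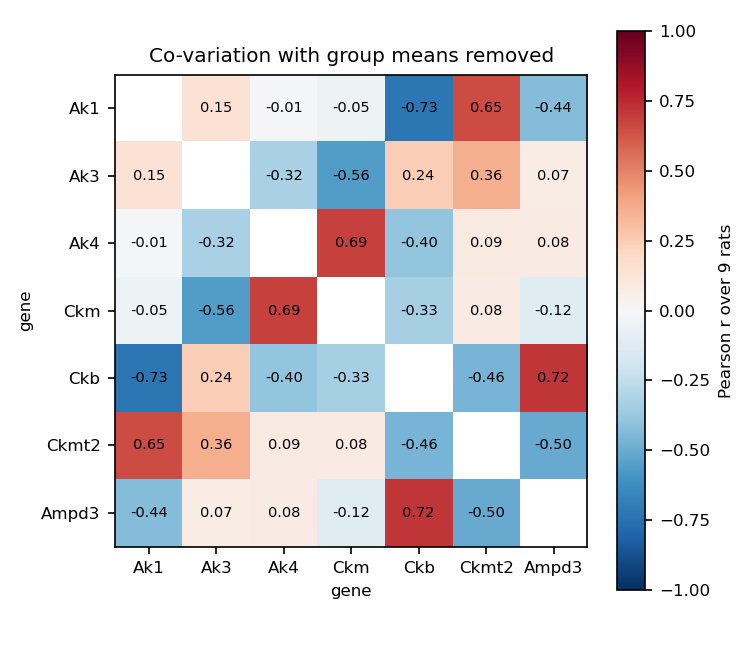
Pearson r between the 7 genes over 9 rats after removal of each group's mean, in colour from -1 (blue) to 1 (red) with the value printed in each cell. The lowest value is Ak1 with Ckb (-0.73) and the highest Ckb with Ampd3 (0.72), and no pair passed the adjusted threshold.

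The genes whose pattern over the 9 rats was most like that of each member were looked up among 11095 gene symbols, by Pearson r after removal of group means. As the highest of so many, these r carry no p. Closest to Ak1 were Phb, the mitochondrial inner membrane protein prohibitin (Phb1 in RefSeq, r = 0.96), the atrial light chain gene Myl4 (0.95) and the mitochondrial ribosomal protein gene Mrpl3 (0.95). Brms1l and Ier5 followed at 0.93 and 0.92. Phb and Myl4 themselves differed between groups by -0.046 and 0.014. With the group means kept, the likeness to Ak1 mostly picks genes that also differ between the groups, the difference for which Ak1 was chosen, and is given as a description. The closest were then Larp1b (r = 0.97), the peroxisomal transporter gene Abcd2 (0.96), Dync1li2 (0.94), Tm9sf4 (0.94) and Ccm2 (0.94). On 4 of 6 WT arrays Abcd2 did not clear the background, so its WT level is poorly measured.

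Ckmt2 varied most like Actc1, the cardiac actin gene, with an r of 0.99 over the 9 rats, followed by Gdpd3 (0.98) and Med16 (0.96). Ckm was followed by Cdh17, Nr1h2 and Prrg3, each at 0.95 to 0.96, of which Cdh17 cleared the background on 3 of 6 WT arrays. Ckb had its closest likeness in Pcdhb19 (0.97), Zdhhc20 (0.93) and Tmem151a (0.92), the last above background on 4 of 6 WT arrays. For Ak3 these were Slc35e1, Aaed1 (Prxl2c in RefSeq) and Gpatch2, at r of 0.94 to 0.95. For Ak4 they were the autophagy gene Wipi1 (0.96), Nde1 (0.95) and Elof1 (0.95), and for Ampd3 Rcbtb1 (0.95), Stard6 (0.94) and Veph1 (0.93). None of the 7 genes was among the closest of another.

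Around the members, 60 other genes of phosphotransfer and adenine nucleotide handling were tested, of 67 on the array. None rose or fell past the threshold (0 with limma in either direction, 3 at an unadjusted p under 0.05), against 0.00651% of all genes upward and 0% downward. Over all genes, 484 were higher and 967 lower at an unadjusted p under 0.05. Of the 60, 29 were higher and 31 lower, with a median difference of -0.0037. The groups did not overlap for 1 of the 60 upward and for 0 downward, beside 1.22% and 2.3% of all genes.

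The creatine supply genes, 4 tested, held the lowest adjusted p of the 60. Gamt, the methyltransferase that completes creatine synthesis, ranged from 0.78 to 1.01 in WT and from 1.01 to 1.09 in overexpressing rats. It differed by 0.17 ± 0.0564 (SE, adjusted p = 0.422 by limma with Benjamini-Hochberg adjustment). The creatine transporter gene Slc6a8 differed by -0.055 (adjusted p = 0.841) and Gatm, the first enzyme of creatine synthesis, by -0.061 (adjusted p = 0.907), while a second Gatm probe read 0.026. The adenylate kinase genes Ak7 and Ak8 were well above background in fewer than 4 of the 9 rats and were not tested.

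Of 10 nucleoside mono- and diphosphate kinase genes 4 were higher and 6 lower. Guk1, the guanylate kinase gene, ranged from 2.22 to 2.43 in WT and from 2.46 to 2.54 in overexpressing rats. It was the 1 gene of the 60 with groups apart, at a difference of 0.14 ± 0.0549 (SE; limma, Benjamini-Hochberg adjusted p = 0.504), with WT rat 4 as the lowest. Nme6 and Cmpk2 differed by 0.18 and -0.13 (adjusted p = 0.531 and 0.730). The purine salvage and breakdown list, 16 genes, held 9 higher and 7 lower. Ampd1, the AMP deaminase of skeletal muscle, differed by 0.18 (adjusted p = 0.642), Ada, the adenosine deaminase, by 0.11 (0.586), and Adssl1, the muscle adenylosuccinate synthase, by -0.068 (0.742).

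AMP-activated protein kinase and its upstream kinases split into 7 higher and 5 lower of 12. Prkaa2, the catalytic subunit most typical of muscle, differed by 0.077 (limma, Benjamini-Hochberg adjusted p = 0.588), the pseudokinase gene Stradb by -0.15 (0.571) and the scaffold gene Cab39l by 0.14 (0.622). Transport of nucleotides and phosphate across the mitochondrial membranes held 5 higher and 5 lower of 10. Slc25a3, the phosphate carrier, differed by -0.14 ± 0.0582 (SE, adjusted p = 0.506), the outer membrane channel Vdac1 by 0.094 (0.703) and the calcium-regulated ATP carrier Slc25a25 by 0.18 (0.791). The glycolytic list had 2 higher and 5 lower of 7, with Pfkl at -0.23 (0.676; second probe -0.093), Hk2 at -0.059 (0.813) and Pgk1 at -0.031 (0.861).

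**Figure D5:**
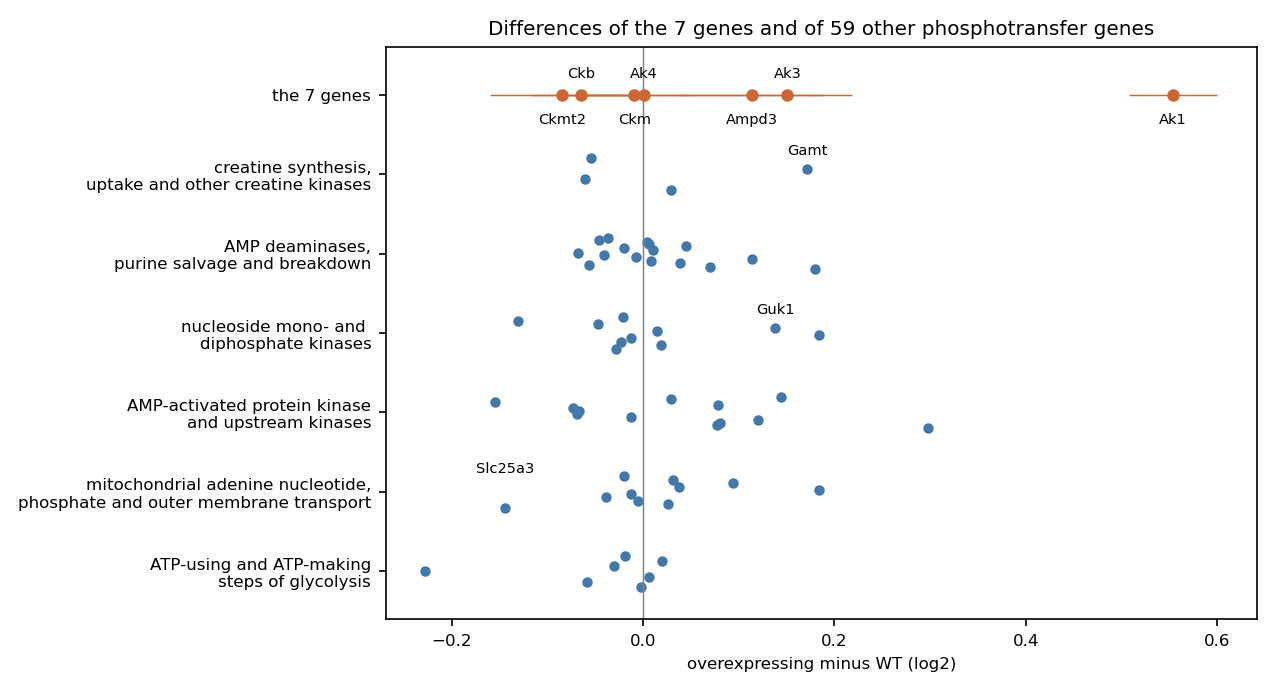
Difference between groups (overexpressing minus WT, log2) of the 7 genes in orange with the SE of the limma fit, and of 59 of the other phosphotransfer and adenine nucleotide genes in blue by list; names are given for blue genes with an unadjusted p under 0.05 (3 genes). Ak1 stands at 0.55 and all 59 lie closer to 0; the signs of Ak4, Ckm and Ckb changed with the settings.

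Markers of the tissue and of other cell types were read beside these values. All 12 cardiomyocyte markers were tested, with a mean level of 7.41 to 7.67 in WT and 7.54 to 7.65 in overexpressing rats. Fast skeletal muscle also makes much Ak1 and Ckm. Of its 11 markers 6 were tested, while the fast myosin genes Myh1, Myh2 and Myh4, with Actn3 and Pvalb, reached that in fewer than 4 of the 9 rats. The mean of those tested was -2.39 to -1.87 in WT and -2.11 to -1.66 in overexpressing rats. Among them the fast troponin gene Tnni2 differed most, by 1.00 ± 0.522 (SE; adjusted p = 0.570 by limma), with overlapping levels of -1.99 to 0.64 in WT and -0.95 to 0.24 in overexpressing rats; the other 5 differed by -0.083 to 0.11. Red cells hold Ak1 and Ampd3, and the mean of 7 erythroid markers was -0.12 to 0.73 and -0.11 to 0.33. Of these Ahsp differed most, by -1.25 ± 0.428 (SE, adjusted p = 0.436 by limma). Its levels overlapped, at -2.68 to -0.41 in WT and -2.95 to -1.77 in overexpressing rats. The rest differed by -0.61 to 0.32. The ranges of the 2 groups overlapped for each of these lists. They also overlapped for atrial (2.29 to 3.06 and 2.29 to 3.74), smooth muscle (-0.38 to -0.20 and -0.44 to 0.11) and nerve markers (-2.16 to -1.65 and -2.59 to -1.55). Overlap was likewise seen for endothelial (0.45 to 0.53 and 0.32 to 0.52), fibroblast (1.35 to 1.64 and 1.47 to 1.75) and macrophage markers (-1.09 to -0.66 and -1.12 to -0.67). All 7 fibroblast markers were higher in overexpressing rats, by a median of 0.11, except that Tcf21 turned lower with normexp background correction and the 75th percentile. Of 7 macrophage markers 5 were lower, with a median of -0.13. The same 5 were lower in each of 5 other scalings, with medians of -0.14 to -0.078. Of 7 endothelial markers 6 were lower, with a median of -0.034, but 3 were with median scaling. Higher and lower counts were 4 and 8 for cardiomyocyte, 4 and 2 for fast skeletal muscle, and 5 and 2 for erythroid markers. They were 5 and 1 for both atrial and smooth muscle markers, and 4 and 2 for nerve markers. The cardiomyocyte counts turned to 8 and 4 with median scaling and with quantile normalization. No other scaling left more cardiomyocyte markers lower than higher. No marker of these 9 lists passed the threshold (0 with limma, 1 cardiomyocyte and 1 erythroid marker at an unadjusted p under 0.05). The part of these cells in the levels of the 7 genes was not tested.

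The genes on either side of each member in RefSeq order, 5 tested genes on each side, were added after the values had been seen. Around Ak1 on chromosome 3 the 10 neighbours differed by -0.17 to 0.18. None had groups apart and none passed the threshold (0 with limma, 2 at an unadjusted p under 0.05, smallest adjusted p = 0.510). Over all 15367 genes, 1.22% were apart upward and 2.3% downward, and 484 were higher and 967 lower at an unadjusted p under 0.05 by limma. Its nearest tested neighbours, the sialyltransferase gene St6galnac6 and the endoglin gene Eng, differed by 0.063 and -0.043. Where the array design places the Ak1 probe on chromosome 2 of rn4, the nearest tested genes other than BQ210707 were the proteoglycan gene Vcan (0.27, adjusted p = 0.678) and the DNA repair gene Xrcc4 (-0.14, adjusted p = 0.758). Around the other members the neighbours of 1, Ckb, included a gene with groups apart, beside the same shares of all genes, and none passed.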

How the data were processed

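Per the file headers, the deposited scanner output gives spot intensity from Agilent Feature Extraction 10.7.1.1, as a background-subtracted and detrended processed signal with no scaling between arrays. The authors' series table is on a natural log scale, judged from slopes of 0.986 to 1.06 against logged median signals of the spots. How its arrays were scaled to each other stays unknown, and its column medians were 5.695 to 5.73. It served as an alternative.

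Of 58717 spots that are not controls, log2 processed signal minus the array's 75th percentile was averaged per probe, without outlier spots where others remained, and then per rat. Probes well above background in at least 4 of 9 rats were kept (17587), with the brightest probe per gene name. The group difference was fitted with limma 3.58.1 (lmFit, eBayes; R 4.3.3), Benjamini-Hochberg adjusted over 15367 genes. Correlations used exact permutations of rats within groups. Gene names are those of the array design, and 11561 tested genes were matched to RefSeq (GRCr8). The members and lists were chosen with earlier results of these data known. Named were the members, up to 3 genes per list by smallest p, and the genes most like each member; 1 gene of the lists is not reported here. Python 3.11.15, pandas 2.3.3, numpy 2.4.6 and matplotlib 3.10.9 were used.

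Alternatives were other scalings and background corrections, the authors' table, filters, the mean over probes, slide and scan day, the heart number as a block, the replicate hybridizations averaged in, a trended variance and each rat left out.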

Additional observations from a re-analysis of the deposited data

Results flagged for a closer look

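Overexpressing rat 3 stood above the rest of its group for Ckm, at 6.98 against 6.85 for the next rat. The replicate hybridization overexpressing heart 4, closest to heart 3 over all probes that passed the filter, read 7.04 for Ckm. WT rat 4 stood below its group for Guk1, at 2.22 against 2.40, and WT rat 3 below its group for Pgk1, at 6.72 against 6.86. These 3 came from 54 groups of rats examined with Dixon's test at the 95% level, where chance sets apart about 1 in 20. Guk1 and Pgk1 did not pass the limma threshold with or without these WT rats. The replicate hybridization overexpressing heart 4, which stayed outside the group means, read 6.60 for Ak1, above the highest WT array at 6.08. It entered the value within slide 4 and was not counted as a further rat.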

How the results depend on the processing

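Of 189 values of the 7 genes under other settings, 180 lay within 1 SD of the reported one. Ak1 moved to 0.63 within slide 1 and 0.43 within slide 3, Ak3 to 0.25 and Ampd3 to 0.29 within slide 3, and Ckb to -0.16, 0.063 and -0.17 within slides 1, 3 and 4. Ckm moved to -0.12 with slide as a block, and Ckmt2 to -0.21 within scan day 1. Over all genes, the count higher past the threshold went from 1 to 0 without a filter on dim probes, with slide or scan day as a block, and on the rats numbered 1, 3 and 6 with or without the heart number as a replicate block. It was 0 to 2 with 1 rat left out. The count lower went from 0 to 1 with normexp and either scaling, the authors' table or no filter, to 7 with a trended, robust variance, and to between 0 and 11 with 1 rat left out, the 11 without overexpressing rat 3. The cause of these shifts was not tested. The heart number was not taken as a pairing. Deviations from the group mean of same-numbered rats correlated at 0.106, 0.035 and 0.124 over genes for numbers 1, 3 and 6. The highest correlations with a rat of another number were lower, at 0.042, 0.024 and 0.065. Whether the number links rats of the 2 groups was not tested. In the rats numbered 1, 3 and 6 Ak1 differed by 0.51, which the replicate block cannot change in a balanced design. Among the 60 other genes 0 passed in any of 23 settings, and among the 21 pairs 0 in any of 16. Signs changed in some of 23 settings for Gatm (4), Cab39l (1) and Pgk1 (1). Median scaling moved the median of all genes by 0.042. Signal over background limits the dimmer Ak4 probe, whose 2 spots lay up to 0.58 apart.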
